A study of Mus musculus with 48 samples.

Results

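Glutamate receptors and the small membrane proteins that travel with them were followed through sorted astrocytes and mCherry-positive cells of the mouse brain. The set holds 33 genes of 24421 gene rows, and they were chosen by gene family alone: 4 AMPA receptor subunits, 5 kainate receptor subunits, 7 NMDA receptor subunits, 1 delta receptor, 6 metabotropic receptors, 6 transmembrane AMPA receptor regulatory proteins (TARPs), 2 cornichons and 2 Neto proteins. All 33 were found in the gene rows by symbol. The study sequenced RNA of 48 sorted samples in 16 groups of 3, from olfactory bulb, cortex and hippocampus.

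Ionotropic glutamate receptors are tetramers that open a cation channel when glutamate binds. In an AMPA receptor the GluA2 subunit, product of Gria2, sets calcium entry, because its edited form keeps calcium out of the pore. TARPs, cornichons and Neto proteins bind the receptors and set their surface delivery and gating, while metabotropic receptors act through G proteins. Astrocytes carry glutamate transporters and metabotropic receptors at synapses, and Bergmann glia of the cerebellum are known for AMPA receptors that pass calcium.

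The GFP sorts came from Aldh1l1-GFP mice, in which an astrocyte promoter drives GFP, and the titles call them astrocytes. Gq-Saline and Gq-CNO groups were made from each of the 3 regions, once as a GFP sort and once as an mCh sort whose titles say neurons. CNO is the ligand of designer receptors, and Gq names the receptor form that couples to Gq proteins. The labels do not say which cells carried it. In olfactory bulb, 2 further GFP groups had no receptor in their labels: CNO control and untreated. The last 2 groups were mCh sorts from olfactory bulb of Slc22a3-FF mice, titled astrocytes, that had received Gfap-mCh (flox control) or Gfap-Cre (Slc22a3-cKO). Gfap is active in astrocytes and in other glia. The labels used here give no age, and no label ties a library to its own animal, so the tests rest on variation among these libraries, which may be technical.

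Library depth ran from 228048 to 24664376 reads. Astrocyte markers led the GFP sorts: the median of 16 such genes was 706 reads per 1000000 (RPM) in olfactory bulb, 679 in cortex and 669 in hippocampus. Their summed level was lower in bulb, at 58454 to 67425 RPM against 81572 to 133335 RPM in cortex and 94715 to 123213 RPM in hippocampus. The median of 12 microglia markers, taken over the libraries of each region, was under 10 RPM. In hippocampus both libraries numbered 4 stood higher, at 48.0 RPM (Gq-CNO) and 51.2 RPM (Gq-Saline) against 2.94 to 11.4 RPM in the rest. In the Gq mCh sorts, microglia markers had medians of 619, 915 and 753 RPM, oligodendrocyte markers 399, 439 and 520 RPM and neuron markers 74.5, 131 and 92.4 RPM, so these libraries held much RNA of cells other than their title names. One cortical GFP library, Gq-Saline number 4, stood apart, with microglia markers at 180.5 RPM against 3.25 to 23.1 RPM in the other 5, and with Grin1 at 101 RPM. The cortical Gq-CNO library number 4 held 325129 reads, so that 3 reads in it are 9.23 RPM. Some results for cortex are therefore also given without both, and the rest include both. In bulk RNA, fewer cells of a type and less RNA per cell cannot be told apart.

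Promoters of 3 members are shown as examples from 3 families whose genes differed between bulb and both other regions below: Gria4 and Cacng5 were higher in bulb and Grm3 was lower. They were chosen after the values were seen. Each is the 250 bases before the RefSeq transcription start on GRCm38.p6, read 5′ to 3′ on the gene's own strand, and capitals mark each match to the E-box letters CANNTG, which basic helix-loop-helix factors can bind. Gria4 lies on chromosome 9 (chr9:4796235-4796484, minus strand), Cacng5 on chromosome 11 (chr11:107915056-107915305, minus strand) and Grm3 on chromosome 5 (chr5:9725353-9725602, minus strand).
Gria4: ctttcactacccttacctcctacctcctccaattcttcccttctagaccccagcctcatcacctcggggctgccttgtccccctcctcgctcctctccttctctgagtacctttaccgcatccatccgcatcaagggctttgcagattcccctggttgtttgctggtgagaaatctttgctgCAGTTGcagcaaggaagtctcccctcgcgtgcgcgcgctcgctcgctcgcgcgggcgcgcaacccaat
Cacng5: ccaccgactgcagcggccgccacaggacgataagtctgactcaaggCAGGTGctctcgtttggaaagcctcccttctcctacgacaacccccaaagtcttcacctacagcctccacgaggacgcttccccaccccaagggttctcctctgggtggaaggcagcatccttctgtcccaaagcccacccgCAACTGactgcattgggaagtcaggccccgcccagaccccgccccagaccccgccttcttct
Grm3: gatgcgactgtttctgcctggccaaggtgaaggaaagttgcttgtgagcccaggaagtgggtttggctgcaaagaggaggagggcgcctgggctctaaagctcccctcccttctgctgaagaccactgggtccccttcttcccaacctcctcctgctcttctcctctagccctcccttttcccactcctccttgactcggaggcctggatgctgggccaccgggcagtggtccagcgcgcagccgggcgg
The Gria4 window held 1 E-box match, 68 bases before the start, the Cacng5 window held 2, at 204 and 62 bases, and the Grm3 window held none. The same letters occurred in 66.2% of the 32851 windows of this length in the RefSeq table. The GC box GGGCGG, searched on both strands, had 0 matches in Gria4, 2 in Cacng5 and 1 in Grm3, and was present in 32.7% of windows. No full NFI site, SOX core ACAAT, CRE core TGACG or TATAAA box was found in the 3 windows. These matches describe letters and show no binding. Of the 33 members, 22 were in this promoter table.

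In GFP astrocytes of the olfactory bulb, AMPA receptor transcripts led the set. Gria1, which encodes GluA1, had a median of 120 RPKM (RPM per kilobase of merged exons) over the 6 Gq libraries, the highest of the 33 genes. Grm3, the Gi-coupled receptor mGluR3, followed at 81.4 RPKM and Gria2 at 25.3 RPKM. Next came the NMDA receptor subunit gene Grin2c at 20.2 RPKM, the TARP gene Cacng5 at 19.5 RPKM, Gria4 at 16.6 RPKM, the glycine-binding NMDA subunit gene Grin3a at 16.3 RPKM and the kainate receptor auxiliary gene Neto2 at 13.5 RPKM. Grm5, the Gq-coupled receptor mGluR5, stood ninth at 10.4 RPKM. Exon lengths came from GENCODE, and a gene that uses short isoforms is understated by them.

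The order differed in the other regions. Grm3 led both cortex, at a median of 233 RPKM, and hippocampus, at 170 RPKM, and Grin2c was second in both, at 29.4 and 23.7 RPKM. Gria1 had 8.26 RPKM in cortex and 6.28 RPKM in hippocampus. Grik5, a kainate subunit that needs a partner to form a channel, had 8.11 RPKM in cortex and 12.1 RPKM in hippocampus against 7.6 RPKM in bulb. Many members that build neuronal synapses lay near the floor in GFP libraries: in bulb, Cacng2 (stargazin) had a median of 2.65 RPM, Cacng3 0.643 RPM, Cacng8 1.66 RPM, Cnih2 0.802 RPM and Grm7 0.904 RPM.

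**Figure D1:**
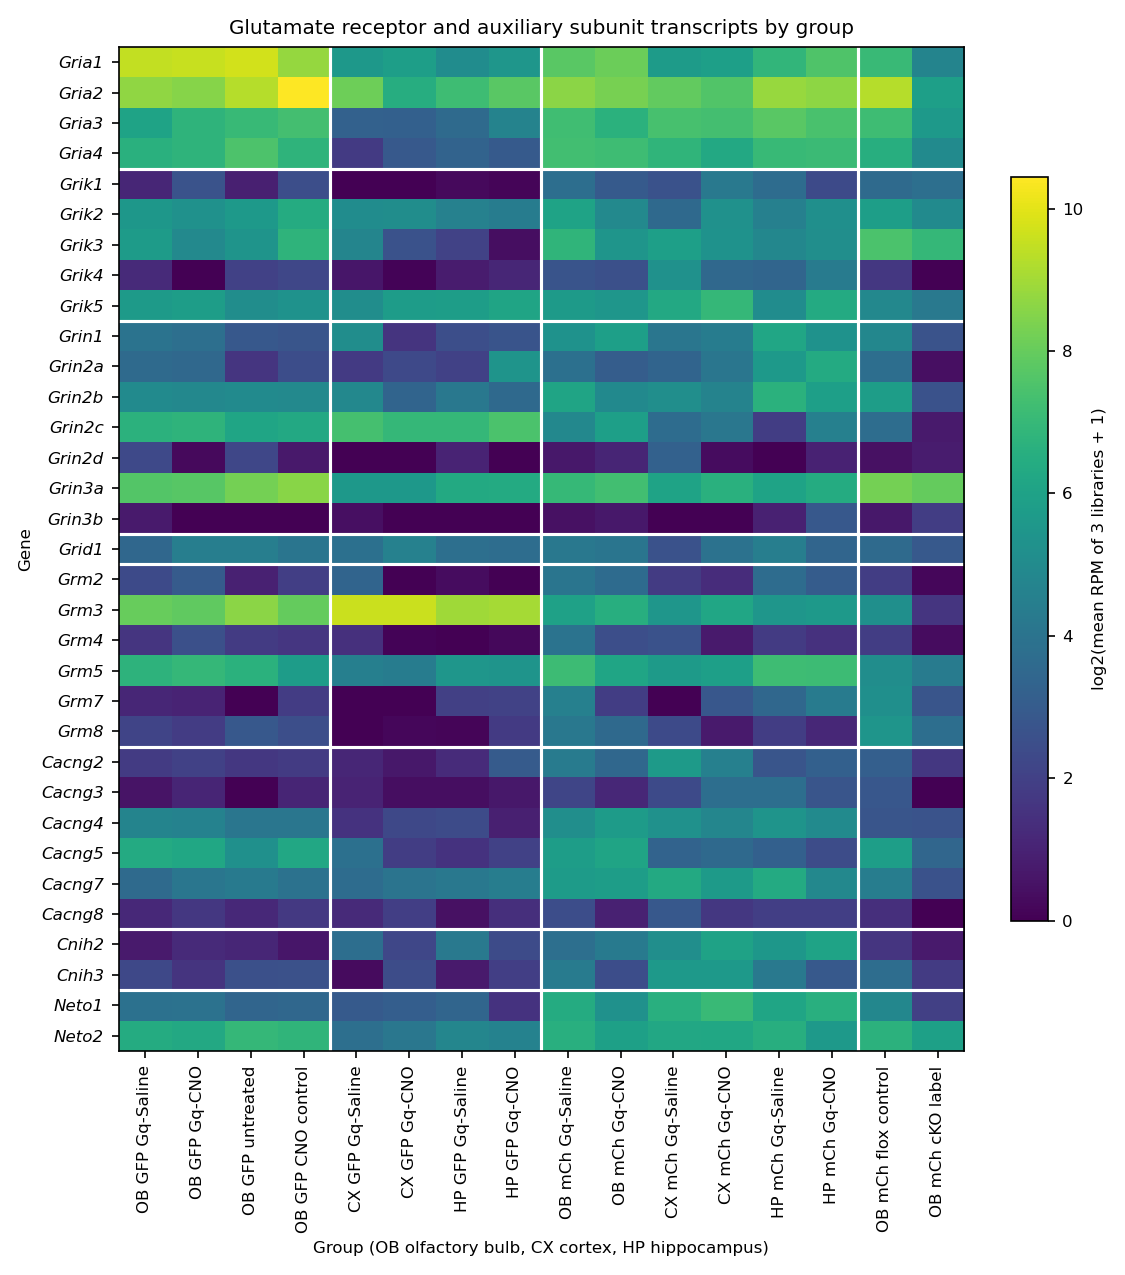
Mean level of each of the 33 genes (rows) in each of the 16 groups (columns, n = 3 libraries each), as log2 of mean RPM plus 1. Brighter cells mark higher levels. Gria1 is high in all 4 olfactory bulb GFP groups, and Grm3 is highest in the cortical and hippocampal GFP groups.

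Comparing regions in the GFP sort, with the Gq libraries only, asked which members mark bulb astrocytes. Of 31 members tested, 10 were higher in olfactory bulb than in cortex and 1 was lower (limma, adjusted p under 0.05). Grik1, among the 10, had no reads in cortex and could be called only as higher. Over all genes tested, 5.02% were called, 3.22% higher and 1.8% lower, and the member median was 2.14 against 0.40 over all genes on the log2 scale. Against hippocampus, 10 of 31 were again higher and 1 lower, beside 3.66% of all genes (2.24% higher and 1.42% lower), with a member median of 1.30 against 0.20. Both comparisons share the bulb libraries, and the 2 members not tested in either, Grin2d and Grin3b, had too few reads. The regions were deposited as separately normalised tables, so reads were rescaled jointly, and table and region cannot be told apart.

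Gria1 was the most abundant of the genes that rose in bulb. Its 6 bulb libraries ran from 672 to 850 RPM with a median of 722, the cortical ones from 2.38 to 104 RPM with a median of 49.9, and the hippocampal ones from 24.4 to 55.3 RPM with a median of 38. No bulb library overlapped with either region, as held for 5.23% of all genes against cortex and 5.08% against hippocampus. The log2 difference was 4.42 (95% interval 3.27 to 5.58, adjusted p = 2.74e-05) against cortex and 4.19 (3.04 to 5.35, adjusted p = 4.96e-05) against hippocampus. Without both cortical libraries numbered 4, the first of which held 2.38 RPM, the cortical difference was 3.31 (adjusted p = 2.43e-08).

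Gria4, the gene of GluA4, was lower in the GFP sorts outside the bulb. Bulb libraries held 86.7 to 119 RPM (median 105), cortical libraries 0.68 to 9.76 RPM (median 4.04) and hippocampal libraries 1.21 to 16.5 RPM (median 7.34), with no overlap. It was higher by 4.72 on the log2 scale against cortex (3.45 to 5.99, adjusted p = 4.08e-05) and by 3.91 against hippocampus (2.64 to 5.19, adjusted p = 0.000378). Gria3, the gene of GluA3, had a median of 86.4 RPM in bulb (45.7 to 123), 8.88 RPM in cortex (1.63 to 12.3) and 18.6 RPM in hippocampus (5.6 to 29.9). Its log2 differences were 3.34 (adjusted p = 0.000209) and 2.27 (adjusted p = 0.00828).

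Gria2 differed less than its 3 relatives. Gq bulb libraries held 334 to 461 RPM with a median of 394, less than the CNO control and untreated bulb libraries described below. Cortical libraries held 55.4 to 575 RPM with a median of 127, and hippocampal ones 125 to 367 RPM with a median of 147. The groups overlapped through cortical Gq-Saline number 4 (575 RPM) and hippocampal Gq-CNO number 4 (367 RPM). Against cortex the log2 difference was 1.35 (0.65 to 2.05, adjusted p = 0.0196), and without both cortical libraries numbered 4 it was 1.58 (adjusted p = 0.000525). Leaving out 1 library ended this call for cortical Gq-CNO number 4 (1.22, adjusted p = 0.068), cortical Gq-Saline number 2 (1.15, 0.0521), bulb Gq-CNO number 1 (1.29, 0.0587) and bulb Gq-Saline number 3 (1.29, 0.0547). Against hippocampus it was between 0.41 and 1.81 (95% interval) and did not pass (adjusted p = 0.0767).

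Per-length shares within receptor families were also computed, in an analysis added after the values were seen. Gria1 made up 70.6% ± 2.09 (SD, n = 6) of AMPA subunit RPKM in bulb, 41.6% ± 23.9 in cortex and 31.4% ± 8.58 in hippocampus. Gria2 made up 14.7% ± 2.13, 48.5% ± 25.2 and 54.0% ± 10.3. These bulb values are from the Gq libraries. Both shares in the CNO control libraries of bulb, given below, lay nearer the cortical means, while those in untreated bulb libraries lay nearer the Gq bulb means. Family totals had medians of 167, 21.4 and 20 RPKM. Each bulb share differed from each other region (exact permutation test, two-sided, p = 0.00217, the smallest that 6 against 6 can give, adjusted over 18 tests p = 0.0030). The cortical spread came mostly from Gq-Saline number 4, where Gria1 was 1.03% of the family. Without both libraries numbered 4 the bulb share minus the cortical share was 16.03 percentage points for Gria1 and -23.20 points for Gria2 (exact permutation p = 0.00476).

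**Figure D2:**
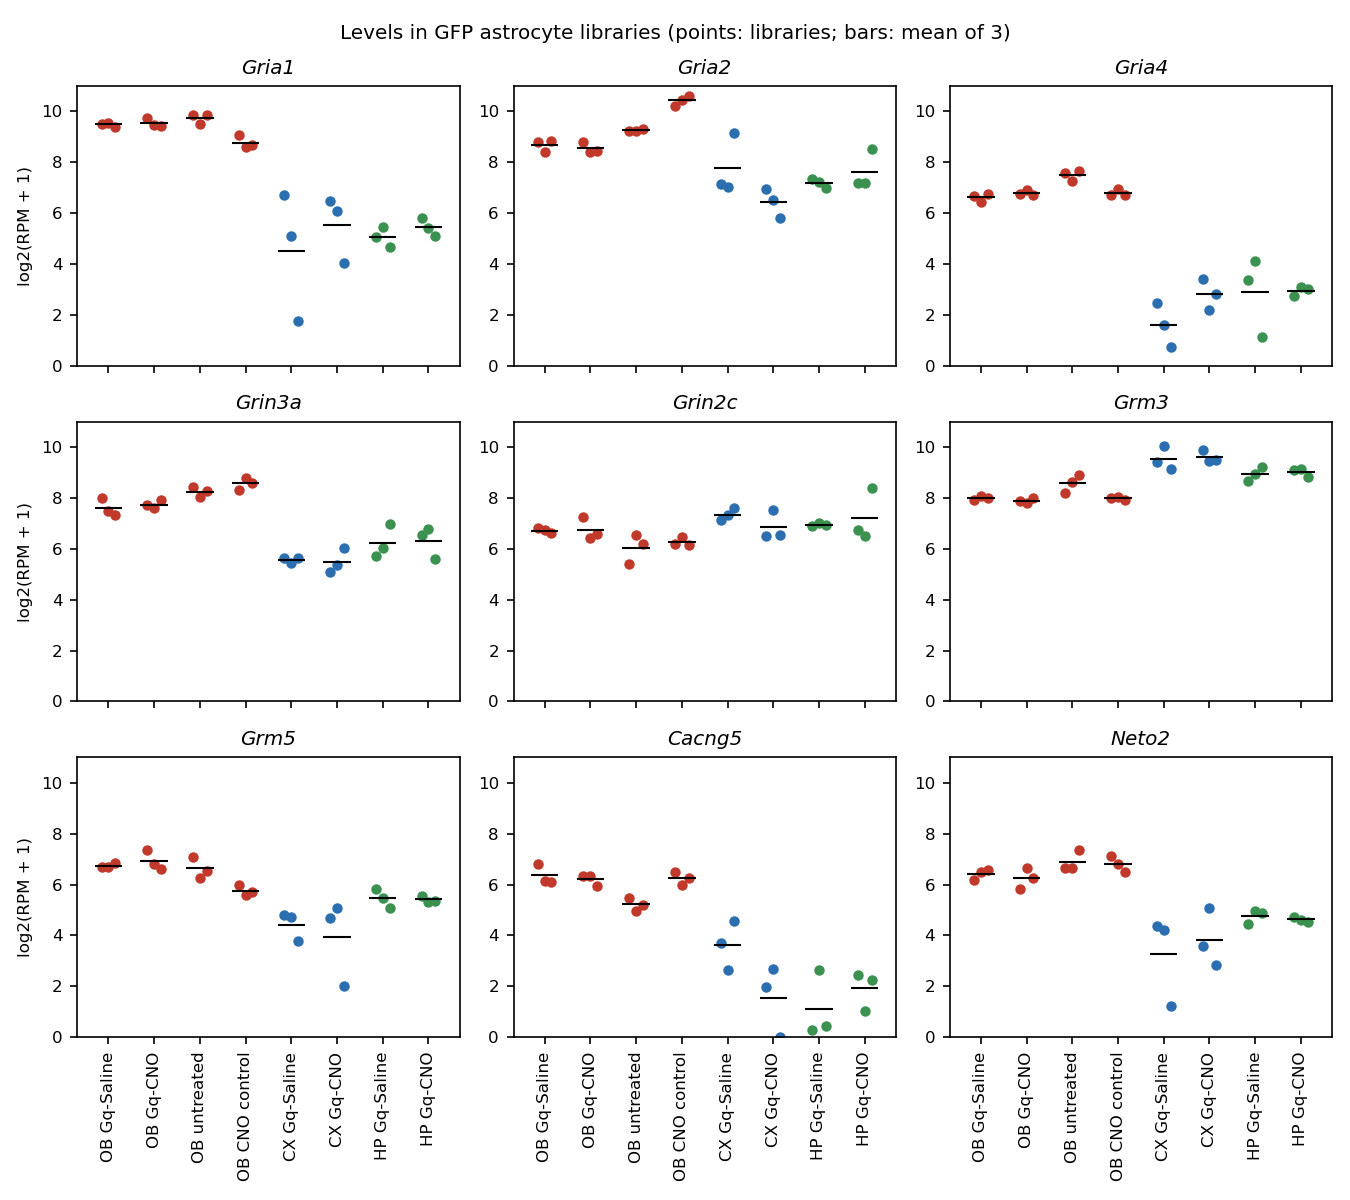
Level of 9 genes in each GFP library (points), as log2 of RPM plus 1, by group (8 groups of 3 libraries). Gria1 lies between 672 and 850 RPM in the Gq bulb libraries and at or below 104 in cortex and hippocampus. Grm3 lies lower in the Gq bulb libraries than in the other regions, but an untreated bulb library reaches the hippocampal range.

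Among kainate receptor genes, Grik1 was listed at 0 in all 6 cortical GFP libraries and at 0.324 to 10.8 RPM in bulb (median 1.63). It passed the test (limma, adjusted p = 0.00341), and the fitted size depends on the pseudocount. With 0 in every cortical library, Grik1 could be tested only as higher in bulb, and only 9 runs that left out 1 library still tested it. Against hippocampus it also passed (3.13, adjusted p = 0.0196), though not in 4 of 9 runs that left out 1 library nor without every library numbered 4 (2.99, adjusted p = 0.0804). Grik3, a low-affinity kainate subunit, ran from 24.4 to 82.1 RPM in bulb (median 35.6) and from 0.0813 to 8.05 RPM in hippocampus (median 0.537), without overlap. Its log2 difference was 5.29 (2.96 to 7.62, adjusted p = 0.00604). In cortex Grik3 had a median of 3.86 RPM, but Gq-Saline number 4 held 73.4 RPM, and the difference of 3.17 (0.84 to 5.50) did not pass (adjusted p = 0.122). Grik2 and Grik5 had intervals that included 0 against cortex, at 0.18 (-0.94 to 1.30) and 0.09 (-0.74 to 0.92).

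NMDA receptor genes split between Grin3a and Grin2c. Grin3a had 162 to 254 RPM in bulb (median 200), 32.7 to 64.6 RPM in cortex (median 45.7) and 48 to 126 RPM in hippocampus (median 77.7), so the bulb libraries stood above all others. The log2 differences were 2.00 (1.41 to 2.59, adjusted p = 0.000123) and 1.31 (0.72 to 1.91, adjusted p = 0.00737). Grin2c, whose subunit gives channels weakly blocked by magnesium, had medians of 102, 148 and 120 RPM, and its differences of -0.53 (-1.16 to 0.10) and -0.44 (-1.07 to 0.19) did not pass. As a share of NMDA subunit RPKM, Grin2c was 51.2% ± 7.21 in bulb, 82.0% ± 7.46 in cortex and 74.4% ± 8.13 in hippocampus, and Grin3a was 40.3% ± 4.29, 12.02% ± 5.44 and 20.1% ± 9.97 (SD, n = 6). Both bulb shares differed from those of the other regions (exact permutation test, two-sided, p = 0.00217, adjusted p = 0.0030). Grin1, the subunit that NMDA receptors need, had a median of 11.4 RPM in bulb (5.51 to 27.32), 1.1 RPM in cortex (0 to 101) and 4.78 RPM in hippocampus (1.62 to 9.9). The bulb-to-cortex difference of 2.58 (0.10 to 5.05) did not pass (adjusted p = 0.267).

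Grm3 ran the other way. Gq bulb libraries held 222 to 269 RPM (median 248), with none of them reaching the other regions. Cortical libraries held 562 to 1060 RPM (median 710) and hippocampal libraries 402 to 598 RPM (median 519). It fell by 1.79 on the log2 scale against cortex (interval -2.12 to -1.46, adjusted p = 2.42e-07) and by 1.13 against hippocampus (-1.47 to -0.80, adjusted p = 0.000106). Grm5 had 96.9 to 161 RPM in bulb (median 107), 3.08 to 32.8 RPM in cortex (median 24.8) and 33 to 56.3 RPM in hippocampus (median 42). It was higher in bulb than in cortex by 2.58 (1.71 to 3.46, adjusted p = 0.000522), or by 1.92 without both cortical libraries numbered 4 (adjusted p = 3.92e-05). Its difference of 1.30 from hippocampus did not pass (adjusted p = 0.102), although no library overlapped. Of the RPKM of the 6 metabotropic genes, Grm3 made up 85.8% ± 2.75 in bulb, 98.6% ± 1.30 in cortex and 97.1% ± 0.692 in hippocampus, and Grm5 11.9% ± 2.51, 0.794% ± 0.431 and 2.54% ± 0.811 (SD, n = 6). Each bulb share again differed from both regions (exact permutation p = 0.00217, adjusted p = 0.0030), and between cortex and hippocampus Grm5 did too (adjusted p = 0.0030) while Grm3 (adjusted p = 0.0362) lost its call on leaving out any 1 of 4 libraries.

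Grm8, a presynaptic receptor gene in neurons, had a median of 3.74 RPM in bulb and of 0 in cortex and passed against cortex (3.58, adjusted p = 0.034), a call lost in 8 of 12 runs that left out 1 library and without both cortical libraries numbered 4 (adjusted p = 0.0921). Grm4 (3.76, adjusted p = 0.0188) and Grm2 (4.05, adjusted p = 0.0422) passed against hippocampus at bulb medians of 4.02 and 4.72 RPM, and their calls were lost in 3 and 11 of 12 such runs.

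Among the partner proteins, Cacng5, the gene of a type II TARP that alters the gating of calcium-permeable AMPA receptors, was called against both regions. It had 60.5 to 113 RPM in bulb (median 74.9), 0 to 22.8 RPM in cortex (median 5.24) and 0.2 to 5.18 RPM in hippocampus (median 2.43), with no overlap. The log2 difference was 4.19 against cortex (2.33 to 6.06, adjusted p = 0.00626) and 5.46 against hippocampus (3.59 to 7.33, adjusted p = 0.000609). Cacng4 had a median of 28.9 RPM in bulb against 1.32 RPM in hippocampus and passed there (4.52, adjusted p = 0.0245), with the call lost in 7 of 12 runs that left out 1 library. Cacng7, with medians of 12.9, 14.9 RPM in bulb and cortex, had a difference of 0.78 (-1.14 to 2.70). Neto2 had 55.6 to 101 RPM in bulb (median 82.5) against 1.36 to 32.9 RPM in cortex (median 14.3). It was higher by 2.79 (1.69 to 3.89, adjusted p = 0.00222), or by 1.95 without both cortical libraries numbered 4 (adjusted p = 0.000793).

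Without both cortical libraries numbered 4, 13 members were called against cortex, and without every library numbered 4, 14 were called against hippocampus. The calls of Gria3, Gria4, Grin3a, Grm3 and Cacng5 against cortex held in each of 23 alternative runs, including the one without both cortical libraries numbered 4. Against hippocampus, 7 members were called without bulb Gq-Saline number 1. Markers of other cells also differed between regions. The summed level of 8 ensheathing glia markers was 2777 to 3985 RPM in bulb, 252 to 984 RPM in cortex and 436 to 702 RPM in hippocampus, with reads in 8 of 8, 2 to 8 and 3 to 6 of them. That of 8 inhibitory neuron markers was 119.5 to 230.7 RPM, 0 to 49.97 RPM and 3.985 to 197.1 RPM. The median of 11 neuron markers was 7.98 to 24.4 RPM, 7.77 to 29.9 RPM and 6.65 to 12.03 RPM, so the ranges overlapped. The sum of 8 oligodendrocyte precursor markers was 248 to 413 RPM in bulb, 140 to 244 RPM in cortex and 145 to 223 RPM in hippocampus, and that of 5 neuroblast markers 78.3 to 169.8 RPM, 26.2 to 70.6 RPM and 26.999 to 71.2 RPM, so bulb stood above both in each. Astrocyte marker sums, given above, were lower in bulb, as was Grm3. The part of these markers in the region differences was not tested.

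**Figure D3:**
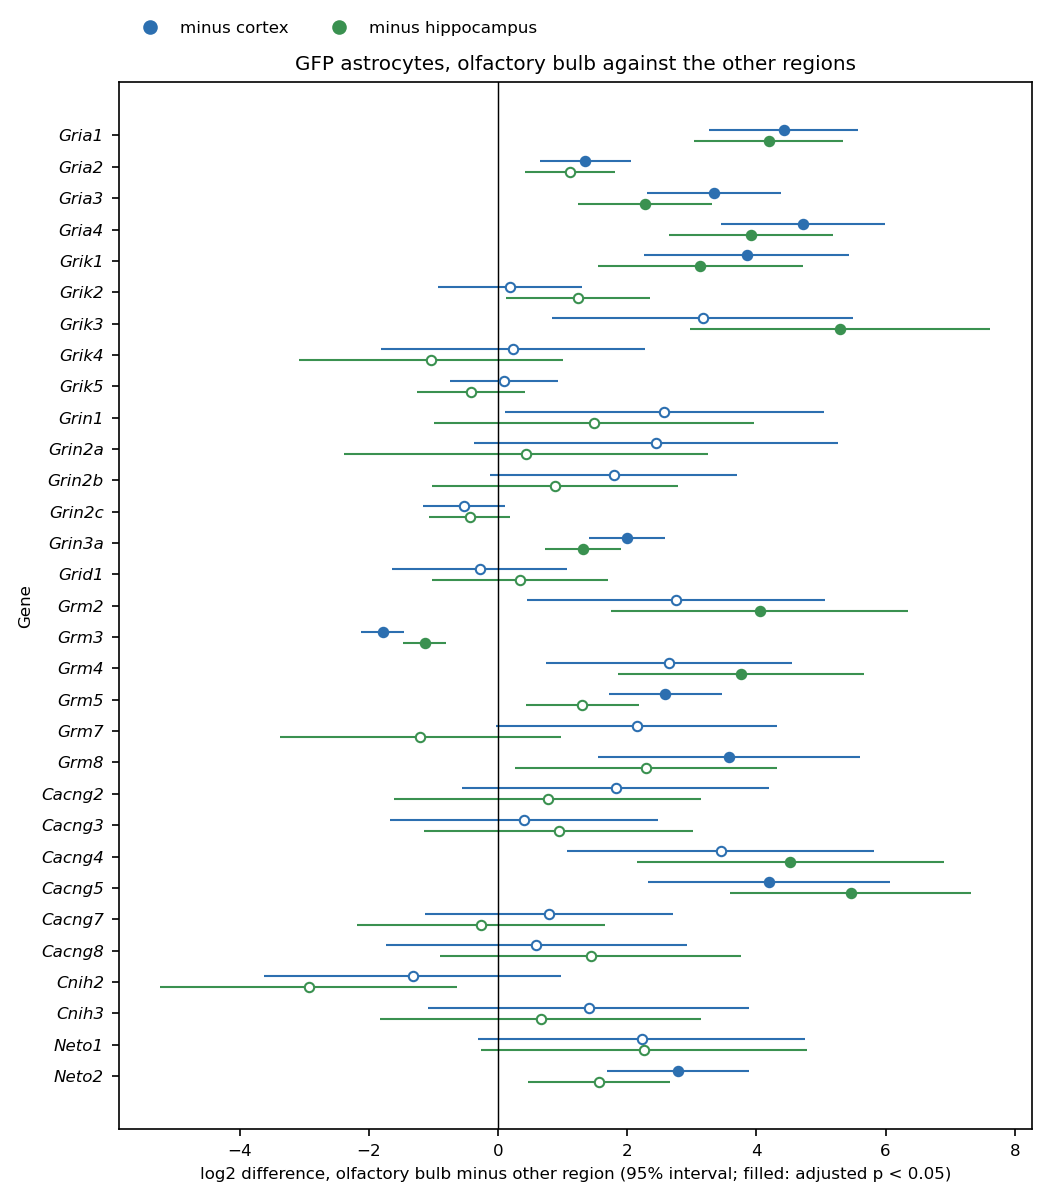
Log2 difference of each tested gene between olfactory bulb and cortex (blue) or hippocampus (green) in the GFP sort, with 95% intervals from limma and filled points where the adjusted p was under 0.05 (n = 6 libraries a region). Gria1, Gria3, Gria4, Grin3a and Cacng5 lie above 0 in both, and Grm3 lies below 0 in both.

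Between cortex and hippocampus, no member of 31 was called in the GFP sort (limma), beside 0.147% of all genes (0.0849% higher and 0.0618% lower). An unadjusted p under 0.05 was reached by 6, while edgeR called 0 and DESeq2 called 2. The share of all genes at the unadjusted level is not given here, so the 6 are not read as particular to these genes. Grm3 had the smallest p, at a log2 difference of 0.66 (adjusted p = 0.13). Without every library numbered 4 it was 0.86 and passed (adjusted p = 0.00169), among 3 members called.

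The 18 Gq libraries of the mCh sort share 1 table. The shallowest of them, cortical Gq-CNO number 3, held 228048 reads, so that 3 reads in it are 13.2 RPM. Of 31 members, 4 were higher in bulb than in cortex and 2 lower in this sort, beside 8.57% of all genes (5.6% higher and 2.98% lower). Gria1 had 169 to 284 RPM in bulb (median 249), 24.1 to 90.6 RPM in cortex (median 55.2) and 67.8 to 213 RPM in hippocampus (median 143). Bulb and cortex did not overlap, as held for 4.28% of all genes, and the log2 difference was 2.18 (1.58 to 2.79, adjusted p = 2.06e-06). Cacng5 was higher in bulb than in cortex by 2.60 (adjusted p = 0.0351) and than in hippocampus by 4.13 (2.52 to 5.75, adjusted p = 0.000754). Cnih2, the cornichon that slows AMPA receptor closing in neurons, had the highest RPKM of all members in cortical and hippocampal mCh libraries. It was lower in bulb, at a median of 17.7 RPM against 40.3 and 46.9 RPM, by -1.59 (adjusted p = 0.0221) and -1.83 (adjusted p = 0.0118). The other calls against cortex were Grm8 (3.56, adjusted p = 0.025), Grin1 (1.45, 0.0283) and Grik4 (-2.90, 0.0333), and against hippocampus, with 4 of 31 called beside 3.87% of all genes (2.26% higher and 1.61% lower), Grin2c (2.38, 0.0365) and Grin2a (-2.77, 0.0459). Cortex was below hippocampus for Gria1 (-1.44, adjusted p = 0.0174), Grm5 (-1.38, 0.025) and Gria2 (-1.04, 0.043), 3 of 31 members beside 0.386% of all genes.

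These mCh calls moved with single libraries. Of 12 runs that each left out 1, the calls against cortex were lost in 9 for Cacng5, 7 for Grik4, 6 for Grm8, 5 for Grin1 and 3 for Cnih2. Those against hippocampus were lost in 11 for Grin2a, 10 for Grin2c and 1 for Cnih2, and those between cortex and hippocampus in 10 for Gria2 and 5 each for Gria1 and Grm5. Bulb against cortex gave 1 call without bulb Gq-Saline number 1 and 3 without any 1 of the bulb Gq-CNO libraries. Bulb against hippocampus gave 2 calls without any 1 of 9 of its 12 libraries, all but hippocampal Gq-Saline numbers 1 and 2 and bulb Gq-Saline number 1. Cortex against hippocampus gave 0 calls without hippocampal Gq-CNO number 1 or Gq-Saline number 1 or 2, and 1 without cortical Gq-CNO number 1 or 3 or hippocampal Gq-CNO number 2 or 3.

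Setting the GFP sort against the mCh sort asked which members belong to astrocyte-enriched RNA. Grm3 and Grin2c were higher in the GFP sort in all 3 regions. For Grm3 the log2 difference was 1.95 in bulb (adjusted p = 5.8e-05), 4.05 in cortex (8.17e-09) and 3.61 in hippocampus (8.79e-10). For Grin2c it was 1.46 (9.53e-05), 3.85 (3.48e-05) and 4.32 (5.05e-07). Grm3 medians in mCh libraries were 79.6, 49.6 and 45.8 RPM, and no GFP library overlapped with them in any region for either gene. Of the members tested, 4 of 31 were higher and 8 lower in bulb, 2 of 25 higher and 10 lower in cortex, and 2 of 31 higher and 19 lower in hippocampus. Over all genes 29.8%, 27.7% and 29.3% were called, and groups did not overlap for 15.3%, 14.8% and 16.4%. The sorts came in different tables, so sort and table cannot be told apart.

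Of the AMPA subunit genes, Gria1 took different sides in bulb and hippocampus, and Gria3 and Gria4 were called only outside bulb. In bulb, Gria1 was higher in the GFP sort (1.63, 1.34 to 1.92, adjusted p = 5.94e-09), with mCh libraries at 169 to 284 RPM. In hippocampus Gria1 was lower (-1.86, -2.48 to -1.24, adjusted p = 4.63e-05). Gria3 was lower in the GFP sort of cortex (-4.17, adjusted p = 7.3e-06) and hippocampus (-3.52, 7.94e-08), and so was Gria4 (-4.33, 2.94e-05, and -4.29, 9.85e-07). Gria3 mCh medians were 148 and 211 RPM there, and 110 RPM in bulb. The difference between regions was itself tested, in a comparison added after the values were seen. Bulb minus cortex passed for 4 of 31 members (2.54% of all genes): Gria4 (4.05, adjusted p = 7.01e-05), Gria3 (3.81, 0.000226), Grm3 (-2.08, 0.0179) and Grin2c (-2.39, 0.0366), the last lost in 14 of 24 runs that left out 1 library. Bulb minus hippocampus passed for 9 of 31 (2.85%), led by Gria1 (3.48, adjusted p = 1.57e-09), Gria4 (3.88, 5.09e-05) and Gria3 (3.08, 5.89e-05), with Grm3 lost in 16 and Cacng4 in 9 of 24 such runs. Cortex minus hippocampus passed for 0 (limma, 0% of all genes), with 2 members at an unadjusted p under 0.05, and for 0 by edgeR and 1 by DESeq2.

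Of the 10 TARP, cornichon and Neto genes, 4 of 10 tested were lower in the GFP sort in bulb, 6 of 9 in cortex and 6 of 10 in hippocampus, with none higher. Over all genes, 16.3%, 15% and 17.3% were called lower and 13.5%, 12.7% and 12% higher. Neto1, a kainate and NMDA receptor partner, was lower by -2.14 in bulb (adjusted p = 0.000138), -4.64 in cortex (0.000716) and -4.94 in hippocampus (4.07e-05). Cnih2 was lower by -3.75 (0.000147), -3.65 (0.00595) and -2.76 (0.000521). The other members called in bulb, of any family, were Cacng7 (-1.91, 0.000109), Grin1 (-1.92, 0.000391), Grm7 (-3.22, 0.00839), Cacng2 (-2.29, 0.014), Grm8 (-2.28, 0.033) and Grik1 (-1.97, 0.0426) lower, with Grin3a higher (0.59, 0.0219). The last 3 lost their calls in 6, 8 and 2 of 12 runs that left out 1 library. In cortex, Grik4 (-4.88, 0.000283), Cacng2 (-4.78, 0.000361), Cnih3 (-4.80, 0.00122), Cacng4 (-3.50, 0.00375), Neto2 (-2.35, 0.0156) and Grik3 (-2.90, 0.0348) were lower. The Neto2 call was lost without both cortical libraries numbered 4 (-1.46, 0.0686), and that of Grik3 in 7 of 12 runs that left out 1 library. In hippocampus, Grm5 (-1.65, 8.61e-05), Grin1 (-3.58, 0.000133), Grin2b (-2.40, 0.000134), Grik3 (-4.97, 0.000199) and Gria2 (-1.26, 0.00051) were lower among the first 12. In bulb, mCh libraries held astrocyte markers at a median of 289 RPM, against 91.2 RPM in cortex and 76.8 RPM in hippocampus, and their oligodendrocyte precursor markers had medians of 178, 211 and 209 RPM. Oligodendrocyte markers had medians of 399, 439 and 520 RPM in the mCh sorts of bulb, cortex and hippocampus against 20.9, 33.2 and 39.3 RPM in the GFP sorts, and their summed level in mCh libraries (medians 26748, 30604 and 35072 RPM) was above that of microglia markers (7952, 13619 and 11387 RPM). The part of these cell mixtures in the sort differences was not tested.

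**Figure D4:**
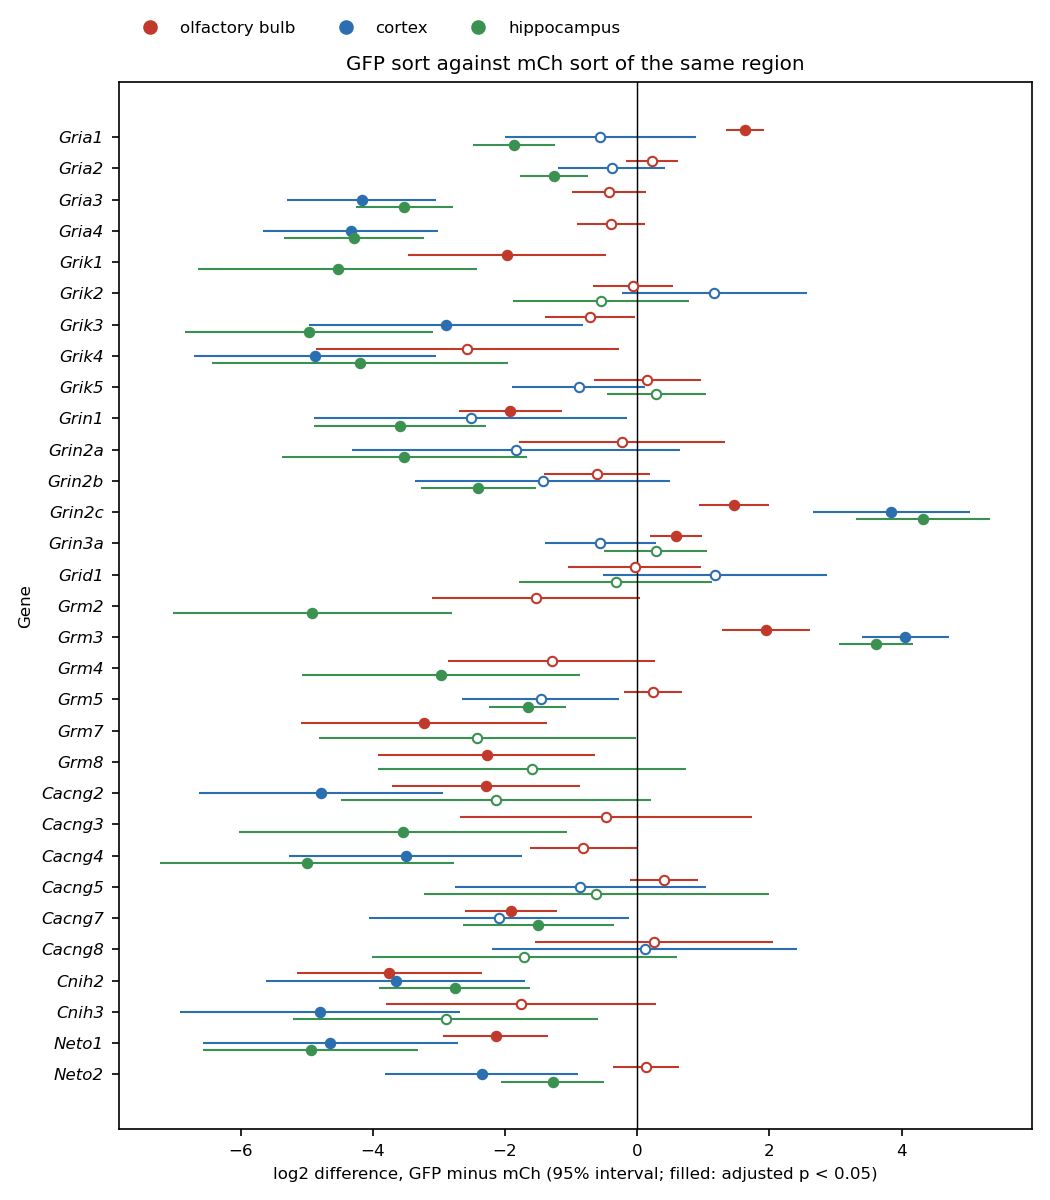
Log2 difference of each tested gene between the GFP and mCh sorts in each region, with 95% intervals from limma and filled points where the adjusted p was under 0.05 (n = 6 libraries a sort and region). Grm3 and Grin2c lie above 0 in all 3 regions, while Gria1 is at 1.63 in bulb and -1.86 in hippocampus.

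Genes that hold receptors at synapses were described as fixed lists. Of scaffold genes, 8 of 20 tested were lower in the GFP sort in bulb, 15 of 18 in cortex and 12 of 19 in hippocampus, with none higher, beside 16.3%, 15% and 17.3% of all genes called lower. They included Dlg2, Shank1 and Camk2a. Of genes that make or carry serine, source of the NMDA co-agonist D-serine, 4 of 7, 4 of 6 and 5 of 6 were higher and none lower, among them Phgdh and Psat1, beside 13.5%, 12.7% and 12% of all genes called higher. Between bulb and cortex in the GFP sort, other receptor partners had 1 of 16 higher (Shisa9, 2.72) and 1 lower (Nrn1, -3.47), and scaffolds had 1 of 20 higher (Grip2, 3.17) and 1 lower (Camk2a, -1.80), beside 3.22% of all genes called higher and 1.8% lower. Shisa9 (4.43) and Grip2 (3.68) were also higher, and Nrn1 (-5.39) and Camk2a (-1.71) lower, in bulb than in hippocampus. Of 7 serine genes, Slc1a5 was higher in bulb (3.48 against cortex, 3.68 against hippocampus) and Phgdh lower (-1.01 and -1.13).

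The main treatment contrast set Gq-CNO against Gq-Saline within each sort and region. No member was called in any of the 6 comparisons by limma, edgeR or DESeq2. In simulated data for the bulb GFP comparison, limma recovered 14.7% of 2-fold and 47.3% of 4-fold changes. The lack of calls therefore does not show a lack of change. Over all genes limma called 0.00847% in the bulb GFP sort and 0% in the other 5. In GFP sorts 27, 19 and 22 members were tested in bulb, cortex and hippocampus, of which 3, 1 and 0 had an unadjusted p under 0.05, and in mCh sorts 28, 27 and 28 were tested, of which 7, 0 and 3 did. The shares of all genes at that level are not given here, so these counts are not read as particular to the members. Groups did not overlap for 1 of 27, 2 of 19 and 1 of 22 members in the GFP sorts, beside 9.88%, 8.89% and 8.85% of all genes, and for 7 of 28, 3 of 27 and 6 of 28 in the mCh sorts, beside 10.6%, 9.64% and 9.48%. In the bulb GFP sort, Gria3 was at 79.1, 70.8 and 45.7 RPM after saline and 123, 93.7 and 108 RPM after CNO. The groups did not overlap, and the log2 difference of 0.77 did not pass. Gria1 was at 734, 752 and 672 RPM against 850, 711 and 689 RPM, with overlap. Grid1 (1.26) and Grik3 (-0.77) had the next smallest p.

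In cortical GFP libraries, Gria2 was at 141, 129 and 575 RPM after saline and 124, 90.7 and 55.4 RPM after CNO, and the high value was again Gq-Saline number 4. Its difference of -1.32, with Cacng5 at -2.85 and Grik5 at 0.79, did not pass. In hippocampal GFP libraries the smallest p belonged to Grin2a (3.64), Gria3 (1.20) and Neto1 (-2.66). The bulb mCh sort had 7 members under an unadjusted p of 0.05, a count not read as particular to these genes. All 7 were lower after CNO, led by Grm7 (-2.85), Grik3 (-1.37) and Grm5 (-1.05). Median neuron marker levels in those libraries were 189, 98.7 and 53.7 RPM after saline and 52.5, 84 and 65.1 RPM after CNO, and the part of that difference was not tested. In the cortical mCh sort the smallest p belonged to Grik4 (-1.98), Grm7 (3.94) and Cacng2 (-1.16), and in the hippocampal one to Cacng7 (-1.63), Grin2c (3.01) and Grik5 (1.14). In 6 tests of whether the effect of CNO differed between regions, limma called none of 31 members and 0% of all genes, which does not show that the effects were alike. Between 0 and 2 members had an unadjusted p under 0.05 in each test, edgeR called 0, and DESeq2 called 1 for bulb against cortex in the mCh sort. No gene of the 4 pathway lists was called in the 6 comparisons by limma, and each list had 0 to 4 genes at an unadjusted p under 0.05 in a comparison.

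In bulb GFP astrocytes without the receptor label, CNO control and untreated libraries did differ in 6 of 26 tested members, 2 higher and 4 lower in CNO control. Over all genes 12.2% were called, 5.29% higher and 6.88% lower, with medians of 0.03 for members and 0.11 for all genes. Gria2 was at 597, 599 and 637 RPM in untreated libraries and 1191, 1399 and 1573 RPM in CNO control, so every CNO control library was higher. The groups of all 6 called members did not overlap, as held for 32.9% of all genes. Gria2 rose by 0.91 on the log2 scale (0.64 to 1.18, adjusted p = 0.000708). Gria1 moved the other way: 922, 728 and 924 RPM untreated and 533, 386 and 407 RPM in CNO control, a difference of -1.22 (-1.60 to -0.85, adjusted p = 0.000952).

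With Gria2 up and Gria1 down, the make-up of the AMPA family differed. Gria1 held 63.5% ± 2.57 (SD, n = 3) of family RPKM in untreated libraries and 37.3% ± 6.50 in CNO control, and Gria2 17.7% ± 1.53 and 45.5% ± 5.89. These shares were not tested. Gria4 fell by 0.96 (189, 151 and 202 RPM to 105, 123 and 104 RPM, adjusted p = 0.00748) and Grm3 by 0.87 (294, 397 and 484 RPM to 253, 265 and 239 RPM, adjusted p = 0.00689). Grik3 rose by 1.15 (adjusted p = 0.0123) and Grm5 fell by 1.14 (adjusted p = 0.0191). Both lost their calls without CNO control number 2 (Grik3 1.05, adjusted p = 0.0794, and Grm5 -1.04, 0.0794) or number 3 (Grik3 1.10, 0.0753, and Grm5 -1.10, 0.0779), and no member was called when limma was run without the mean-variance trend. Among pathway genes, Shisa6 (3.86), Olfm1 (1.54), Slc1a5 (2.09) and Slc1a4 (0.68) were higher and Cnih4 (-1.29) and Psph (-1.56) lower, 2 of 14 partners and 2 of 7 serine genes higher and 1 of each lower.

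Other features of these libraries moved with the group. Untreated libraries held 2371002, 1724893 and 2964862 reads and CNO control 6619479, 8577907 and 7151085 reads. The median of 12 microglia markers was 42.0, 33.3 and 35.6 RPM in untreated libraries and 3.47, 7.05 and 4.54 RPM in CNO control, their summed level 598 to 738 against 113 to 196 RPM, and that of 8 ensheathing glia markers 1881 to 2093 against 2297 to 4036 RPM. Astrocyte marker medians were lower in CNO control, at 472 to 524 RPM against 536 to 628 RPM. Oligodendrocyte marker sums were higher, at 1938 to 2749 RPM against 1052 to 1463 RPM, as were medians of oligodendrocyte precursor markers, at 22.1 to 36.8 RPM against 9.70 to 19.225 RPM. The sum of 7 excitatory neuron markers was 2.70 to 7.54 RPM in untreated libraries, where 2 of the 7 had reads, and 20.7 to 78.8 RPM in CNO control, where 5 to 7 did. None of these ranges overlapped, though those of other marker summaries did. Oligodendrocyte marker medians were 24.7 to 45.4 RPM in CNO control and 16.4 to 41.1 RPM in untreated libraries. Oligodendrocyte precursor sums were 265 to 337 and 226 to 280 RPM, and inhibitory neuron sums 93.0 to 259 and 115 to 207 RPM. Neuroblast marker sums were 72.5 to 106 and 50.2 to 141 RPM. The part of these features in the result was not tested. The Gq-CNO minus Gq-Saline difference and the CNO control minus untreated difference were unequal in 5 of 30 members, beside 5.29% of all genes: Gria1 (1.29, adjusted p = 0.000542), Gria2 (-1.03, 0.00478), Grik3 (-1.92, 0.0109), Gria4 (1.15, 0.0181) and Grm5 (1.35, 0.0307). Without CNO control number 3, Gq-CNO number 2 or Gq-Saline number 2, 3 were called, and of 12 such runs Grm5 lost its call in 7 and Gria4 in 3.

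The last contrast set the mCh libraries labelled Slc22a3-cKO against flox control. Slc22a3, the targeted transporter gene, had 0, 0 and 12 reads in the former and 0, 0 and 0 in the latter, so it does not check the labels. Of 28 members tested, 4 were lower and none higher in the libraries labelled Slc22a3-cKO. Over all genes 2.53% were called, 1.37% higher and 1.17% lower, and the members had a median of -1.68 against -0.10. Gria2 was at 501, 1070 and 311 RPM in flox control and 21.6, 73.9 and 80.0 RPM in libraries labelled Slc22a3-cKO, a fall with no overlap, as held for 22.7% of all genes. It fell by 3.25 on the log2 scale (-4.42 to -2.09, adjusted p = 0.0105). Cacng5 fell from 60.1, 72.3 and 39.2 RPM to 11.2, 10.5 and 7.74 RPM (-2.31, adjusted p = 0.0291), and Gria1 from 98.7, 234 and 67.7 RPM to 17.1, 17.9 and 40.4 RPM (-2.13, adjusted p = 0.0465). Cacng3, a neuronal TARP, was at 7.12, 9.31 and 1.80 RPM in flox control and had 0 reads in each of the other 3 (limma, adjusted p = 0.0466). It reached the minimum value for testing only in flox control, so it could be tested only as lower.

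Grin3a, at 260, 315 and 349 RPM in flox control and 187, 91.9 and 469 RPM in libraries labelled Slc22a3-cKO, overlapped between the groups. At an unadjusted p under 0.05 there were 16 members, all lower, but the share of all genes at that level is not given here. The count is therefore not read as particular to these genes. Of pathway genes, Shisa9 (-3.04), Camk2a (-2.29) and Nrxn3 (-3.34) were lower, 1 each of 14 partners, 18 scaffolds and 8 trans-synaptic genes. Median neuron markers were 69.0, 54.7 and 33.3 RPM in flox control and 5.31, 13.4 and 23.1 RPM in libraries labelled Slc22a3-cKO, oligodendrocyte precursor markers 16.5, 45.4 and 16.1 against 1.24, 2.73 and 8.00 RPM, and microglia markers 347, 253 and 434 against 782, 1099 and 435 RPM. Astrocyte markers were at 66.9, 126 and 58.6 RPM against 52.4, 27.282 and 75.4 RPM, below the microglia markers in every one of the 6 libraries. The part of this cell mixture in the lower receptor levels was not tested. Cacng3 lost its call in 2 of the 3 runs that left out 1 library and still tested it. Of all 6 such runs, Cacng5 lost its call in 5 and Gria1 in 4. The count was 1 without Slc22a3-cKO number 1 or 2 or flox control number 1 or 2, 2 without flox control number 3, and 10 without Slc22a3-cKO number 3.

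**Figure D5:**
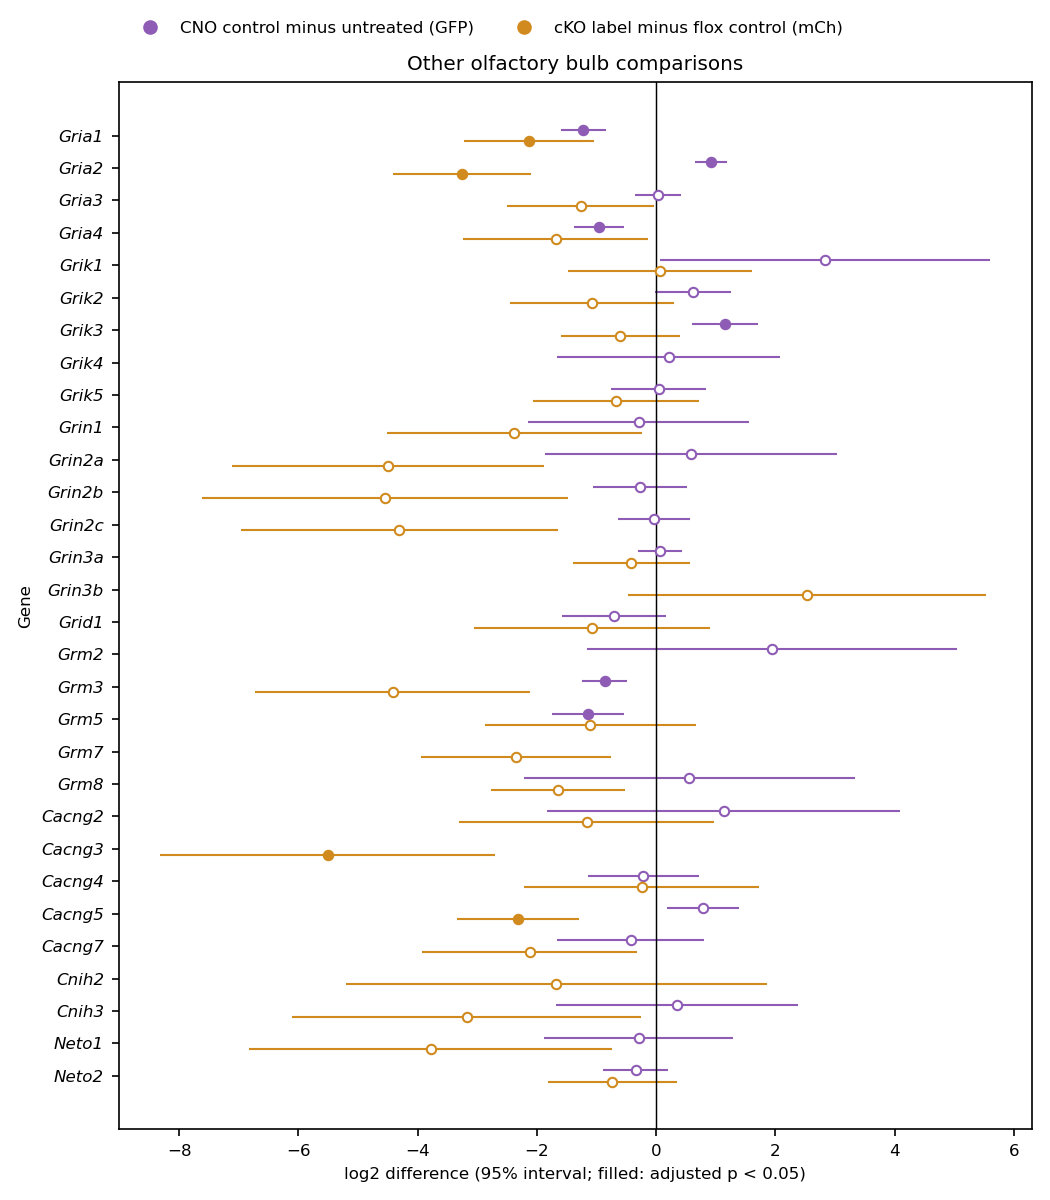
Log2 difference of each tested gene between CNO control and untreated GFP libraries, and between mCh libraries labelled Slc22a3-cKO and flox control, both from olfactory bulb, with 95% intervals from limma and filled points where the adjusted p was under 0.05 (n = 3 libraries a group). Gria2 is at 0.91 in the first contrast and -3.25 in the second, and Gria1 at -1.22 and -2.13.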

How the data were processed

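RNA was prepared from sorted cells with a Trio RNA-Seq kit and sequenced in pairs, per the labels' protocols. The submitters' processing notes name FastQC 0.11.7, MultiQC 1.11, STAR 2.5.0a, DESeq2 1.30.1 and mm10. The counting program, its annotation and its use of strand are not given in the sources used here, so reads of overlapping genes cannot be told apart. The authors deposited each value as a signal, reads divided by 1 size factor a library, in 6 separately normalised tables. Dividing by a column's smallest positive value gave whole reads for all values (tolerance 0.05), and depth and RPM came from these. Counting error alone limits low values.

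Members and lists were chosen with earlier results of these data known. limma 3.58.1 in R 4.3.3 was fitted to log2(value + 1) with a mean-variance trend, on genes that reached a minimum value of 10 in 3 or more libraries, with Benjamini-Hochberg adjustment over all tested genes and calls at 0.05. A fold change on this scale understates low genes. Treatment contrasts used the deposited values of the 2 groups. Region, sort and difference contrasts used recovered reads over joint size factors. edgeR 4.0.16 and DESeq2 1.42.0 on recovered reads, other pseudocounts, scalings and filters, and leaving out libraries were alternatives. Methods were tested on simulated data. Up to 12 called members were named by smallest adjusted p, otherwise the 3 with the smallest unadjusted p, and lists by counts and up to 3 genes. Counts at an unadjusted p under 0.05 are given without the share of all genes and are not read as particular to a list. In no comparison did all same-numbered libraries deviate together (correlation above 0.1), so numbers were not taken as pairs. The 4 GFP libraries numbered 4 are known by group only.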

Additional observations from a re-analysis of the deposited data

Results flagged for a closer look

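In olfactory bulb GFP libraries, the Gq-CNO minus Gq-Saline difference was unequal to the CNO control minus untreated difference for 5 members by limma's test. The first minus the second was 1.29 on the log2 scale for Gria1, -1.03 for Gria2, 1.15 for Gria4, -1.92 for Grik3 and 1.35 for Grm5. Gria4 and Grm5 lost their calls in 3 and 7 of 12 runs that left out 1 library. CNO control and untreated libraries also differed in depth (6619479 to 8577907 against 1724893 to 2964862 reads), in summed microglia markers (113 to 196 against 598 to 738 RPM) and in summed excitatory neuron markers (20.7 to 78.8 against 2.70 to 7.54 RPM), whose part was not tested.

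The difference between GFP and mCh sorts itself differed between regions, in tests added after the values were seen. Bulb minus cortex gave 3.81 for Gria3, 4.05 for Gria4, -2.39 for Grin2c and -2.08 for Grm3, with Grin2c lost in 14 of 24 runs that left out 1 library. Bulb minus hippocampus gave 3.48 for Gria1, 1.46 for Gria2, 3.08 for Gria3, 3.88 for Gria4, 4.21 for Grik3, -2.87 for Grin2c, -1.68 for Grm3, 1.88 for Grm5 and 4.12 for Cacng4. Of these, Grm3 was lost in 16 and Cacng4 in 9 of 24 such runs.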

How the results depend on the processing

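No named gene changed direction under any alternative. Counts of called members that moved by over 1.5 times, against the counts in the report, were as follows. Without limma's trend, CNO control against untreated gave 0, Slc22a3-cKO label against flox control 1, cortex against hippocampus in the mCh sort 0, the Gq-CNO minus CNO control effect 0 and the bulb-minus-cortex sort difference 2. DESeq2 gave 10 for the Slc22a3-cKO label, 2 for cortex against hippocampus in the GFP sort and 7 in the mCh sort, 1 for the bulb-minus-cortex Gq-CNO effect in the mCh sort, and 9, 14 and 1 for the bulb-minus-cortex, bulb-minus-hippocampus and cortex-minus-hippocampus sort differences. edgeR gave 3 for bulb against cortex in the mCh sort. A pseudocount of 0.1 gave 2 for the Slc22a3-cKO label and 2 for bulb against hippocampus in the mCh sort. Scaling to RPM gave 3 for the Gq-CNO minus CNO control effect. With the replicate block, the Slc22a3-cKO label gave 1 and cortex against hippocampus in the GFP sort 3, as did leaving out the libraries numbered 4 without a block; the numbers do not pair the libraries.

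Leaving out 1 library at a time gave 1 to 10 calls for the Slc22a3-cKO label, 4 to 7 for CNO control, 8 to 15 and 7 to 10 for bulb against cortex and hippocampus in the GFP sort, 0 to 1 for cortex against hippocampus there, 1 to 7, 2 to 5 and 0 to 4 in the mCh sort, 9 to 13, 10 to 13 and 18 to 20 for the sorts in bulb, cortex and hippocampus, 3 to 5 for the Gq-CNO minus CNO control effect, and 3 to 7 and 7 to 10 for the sort differences between regions. Members with few reads are limited by depth, and a level of 0 in the shallowest GFP library still allows 9.23 RPM. In the shallowest mCh library, cortical Gq-CNO number 3, the same limit is 13.2 RPM.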
